A study of Drosophila melanogaster with 10 samples.

Results

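The genes described here encode subunits of respiratory complex III, complex IV and ATP synthase, with 4 factors that assemble complex IV. They were chosen by name, as every gene whose current symbol or synonym starts with UQCR, with COX and a digit, or with ATPsyn, whatever the case of the letters, plus cype, levy and RFeSP. The rule found 53 genes, of which 44 had a probe set naming no other gene, among 11983 such genes on the array. For a gene with several such probe sets the one highest on average was used, and 32 of the 44 genes reached the mean log2 value of 4 required for testing. In all, 5906 genes reached it. Of the 9 genes without a value, ATPsynG and COX6B lie on probe sets that also name another gene. UQCR-C1, UQCR-C2, COX1, COX2, COX3, COX7CL and UQCR-6.4L were not analysed here.

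Messenger RNA was measured on 10 arrays of Drosophila melanogaster SL2 cells, an established male line of embryonic origin. For 9 of the arrays the cells were collected 7 days after 10 µg of double-stranded RNA (dsRNA) had been added. The temperature and the length of the incubation with dsRNA were the same for all 9. The knockdown groups received 1 of a pair of constructs, M1 or M2, directed at MBD-R2, which belongs to a chromatin complex named NSL (3 arrays each). They were compared with cells given dsRNA against GST (3 arrays), which carry the exposure to dsRNA but not to an MBD-R2 construct. The other array came from cells without dsRNA, for which no day of collection is given. MBD-R2 itself was not analysed here, so knockdown names the treatment and not a measured depletion. The third M2 array is titled M3 but has the source name and description of M2, and was grouped as M2. The values are log2 expression values on the authors' GCRMA scale, on which the lowest value of the table is 2.22 and the highest value of an array lies between 16.12 and 16.50.

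Complex III passes electrons from ubiquinol to cytochrome c, and complex IV, cytochrome c oxidase, passes them on to oxygen. Both pump protons across the mitochondrial inner membrane, and ATP synthase uses the resulting gradient to make ATP. Most of their subunits are encoded in the nucleus, while the catalytic core of complex IV is encoded in mitochondrial DNA. The core needs heme and copper, which dedicated assembly factors deliver. Drosophila also carries paralogs of many of these genes, named with a final L, several of which are known for expression in the testis.

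The structural subunits and the assembly factors differed in how many genes changed. In the mean of M1 and M2, 0 of 27 tested subunit genes fell and 1 rose in limma's test, while 2 of 4 complex IV assembly genes fell and 1 rose. Adjusted p values were taken over all 7298 probe sets tested, with a threshold of 0.05. Of all these probe sets 17.4% were lower and 7.85% higher (25.3% in either direction), so the count of falls among subunits lay below the background. Lower calls made up 1270 of 1843 on the deposited scale, 1111 of 1922 after quantile normalisation and 110 of 225 after centring on the spike-in controls. That last split rests on GST replicate 2, without which the same centring gave 990 of 1110. The median log2 fold change was -0.13 for the 27 subunit genes and -0.03 for all probe sets tested. The difference between subunits and assembly factors was not itself tested.

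**Figure D1:**
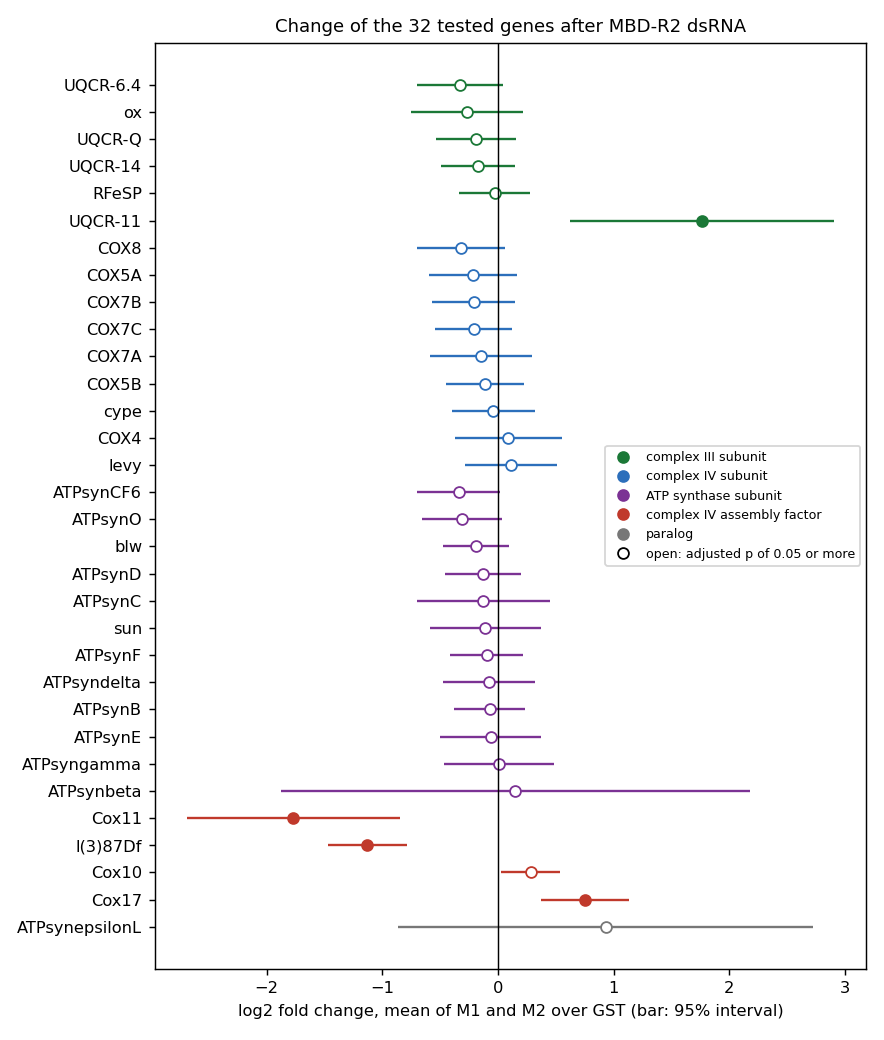
Log2 fold change of the mean of M1 and M2 over GST (horizontal axis) for the 32 tested genes, coloured by role, with 95% intervals. Filled points passed limma's test. Cox11 and l(3)87Df lie below 0 and Cox17 and UQCR-11 above it, while 25 of the 27 subunits have intervals within 1 log2 unit of 0.

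Among the 4 assembly genes of the naming rule the largest change was that of Cox11, which in other organisms delivers copper to a copper centre of the oxidase core. Its log2 level was 5.23, 6.35 and 7.02 with M1 and 6.24, 6.72 and 6.81 with M2. It was 7.88, 7.82 and 8.79 in GST arrays and 8.49 without dsRNA. Each of the 6 knockdown arrays lay below each GST array, and the lowest value was that of M1 replicate 1. The log2 fold change was -1.77 ± 0.40 (SE, 6 arrays against 3), a 3.41-fold fall (limma adjusted p = 0.0131). Without GST replicate 3, its highest GST array, the change was -1.45 and the adjusted p in limma 0.0566. In the annotation Cox11 overlaps Cap-D3, a condensin subunit gene, whose probe set stood at 2.22 in both knockdown and GST arrays.

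The gene l(3)87Df has the synonym COX20, the name of a chaperone known in yeast and human for the maturation of the copper-binding oxidase subunit. It stood at 8.82, 8.72 and 9.07 with M1 and at 8.66, 8.82 and 8.85 with M2. In GST arrays it stood at 9.73, 10.16 and 9.97, and without dsRNA at 9.97. The groups did not overlap. The fall of 1.13 ± 0.15 on the log2 scale (2.19-fold, limma adjusted p = 0.000971) kept its call when any 1 of the 9 dsRNA arrays was left out.

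Cox17, a copper chaperone that supplies complex IV, moved the other way. Its log2 level was 10.65, 10.51 and 10.82 with M1, 10.24, 10.37 and 10.69 with M2, and 9.71, 9.61 and 10.07 in GST arrays. Without dsRNA it was 10.06. Each knockdown array was above each GST array, with the highest GST array at 10.07 and the lowest M2 array at 10.24. The rise was 0.75 ± 0.17 (1.68-fold, limma adjusted p = 0.0119). Without GST replicate 1 or 2 the adjusted p in limma was 0.051 and 0.0529, at log2 fold changes of 0.71 and 0.66.

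Cox10, the enzyme that converts heme b to heme O for complex IV, had log2 levels of 9.62, 9.59 and 9.59 with M1 and 9.48, 9.45 and 9.38 with M2. GST arrays had 9.15, 9.36 and 9.20, and the array without dsRNA 9.16. Its knockdown arrays were also all above its GST arrays, by a small margin. The log2 fold change of 0.28 ± 0.11 did not pass (limma adjusted p = 0.104). With replicate 3 and the array without dsRNA set apart as a block it had an adjusted p of 0.0293 in limma, and with the replicate number as a block or in replicates 1 and 2 alone it did not pass (adjusted p = 0.0545 and 0.0772). In the fit with replicate 3 set apart 6 of the 32 genes were called, 3 in each direction, while 20.3% of all probe sets were higher and 28.2% lower.

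**Figure D2:**
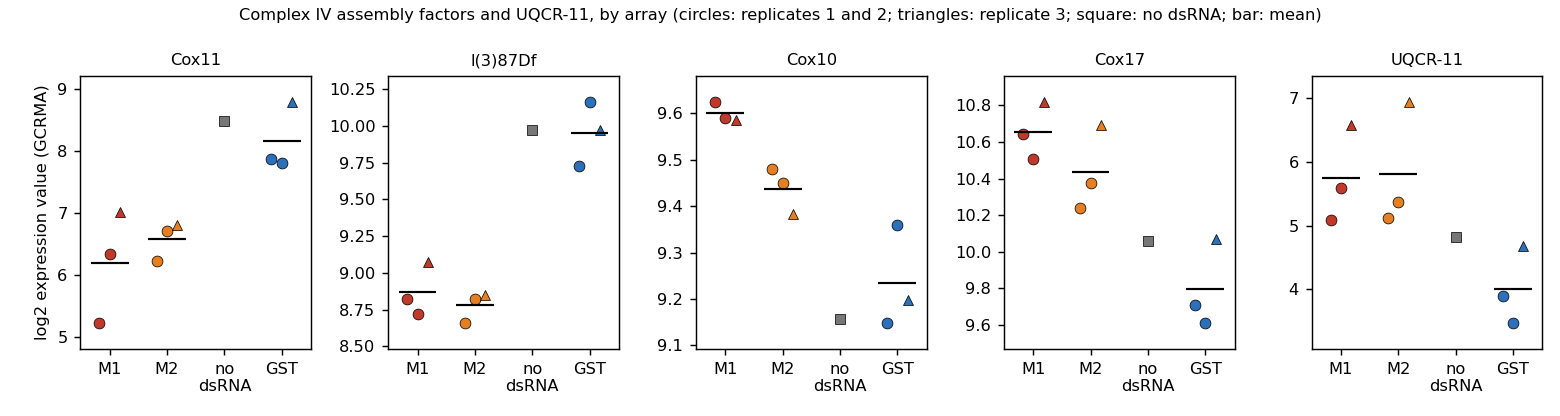
Log2 expression value of each array for the 4 complex IV assembly genes and UQCR-11, with M1, M2, the array without dsRNA and GST along the horizontal axis. Bars are group means. Cox11 and l(3)87Df are lower and Cox17, Cox10 and UQCR-11 higher in all 6 knockdown arrays than in the 3 GST arrays.

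Not overlapping between knockdown and GST arrays was common in this table, with 21.7% of probe sets entirely lower and 10.7% entirely higher. Among the 32 tested genes 2 were entirely lower and 3 entirely higher, and those 5 were the 4 assembly genes and UQCR-11. Of the 27 subunits, 0 were entirely lower.

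In complex III, UQCR-11, a small accessory subunit, was the 1 subunit that rose. It had 5.08, 5.59 and 6.58 with M1, 5.12, 5.37 and 6.93 with M2, 3.89, 3.47 and 4.68 in GST arrays and 4.82 without dsRNA. Within each group replicate 3 was the highest, and the lowest knockdown array still exceeded the highest GST array. The log2 fold change was 1.77 ± 0.50, a 3.40-fold rise (limma adjusted p = 0.0331). With the replicate number as a block the adjusted p was 0.000475 in limma. Without GST replicate 1, GST replicate 2 or M1 replicate 2 it was 0.102, 0.127 and 0.0577 in limma, at changes of 1.70, 1.50 and 1.81. This gene was measured at the low end of the scale, with a GST mean of 4.01 that lies 1.79 above the lowest value of the table.

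The other 5 tested complex III subunits did not pass. They were RFeSP, the Rieske iron-sulfur protein that takes part in electron transfer (-0.03 ± 0.13), UQCR-14 (-0.17 ± 0.14), UQCR-Q (-0.19 ± 0.15), ox (-0.27 ± 0.21) and UQCR-6.4 (-0.33 ± 0.16). UQCR-6.4, a small subunit, had log2 levels of 12.29, 12.16 and 12.58 with M1 and 12.06, 12.20 and 12.31 with M2, against 12.41, 12.49 and 12.88 in GST arrays. Its knockdown and GST ranges overlapped through M1 replicate 3. The adjusted p in limma was 0.184, and 0.0413 with the replicate number as a block.

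None of the 9 tested complex IV subunits passed, and their log2 fold changes lay between -0.32 and 0.11. COX8 had the lowest, with 11.99, 11.88 and 12.03 in M1 arrays, 11.89, 11.78 and 11.82 in M2 arrays and 12.07, 11.96 and 12.63 in GST arrays. Its GST replicate 3 stood apart, and its fold change of -0.32 ± 0.17 had a limma adjusted p of 0.207. At the other end levy, the fly COX6A, had 0.11 ± 0.17, and COX4, an early-assembling subunit in other organisms, 0.09 ± 0.20. COX5A, COX7B and COX7C were each at -0.21, COX7A at -0.15, COX5B at -0.11 and cype, the fly COX6C, at -0.04. The 9 GST means ran from 12.22 to 13.16, well above the lowest table value.

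None of the 12 tested ATP synthase subunits passed either. Of the catalytic head, blw (alpha) was at -0.19 ± 0.13 and ATPsynbeta at 0.15 ± 0.88. In the central stalk ATPsyngamma was at 0.01 ± 0.21, ATPsyndelta at -0.08 ± 0.17 and sun (epsilon) at -0.11 ± 0.21. ATPsynC, which forms the rotating ring in the membrane, was at -0.13 ± 0.25. Among the outer stalk subunits ATPsynCF6 was at -0.34 ± 0.16, ATPsynO at -0.31 ± 0.15, ATPsynD at -0.13 ± 0.14 and ATPsynB at -0.07 ± 0.13. ATPsynF and ATPsynE, small membrane subunits, were at -0.10 ± 0.14 and -0.06 ± 0.19. ATPsynCF6 came nearest to the threshold (limma adjusted p = 0.16), with 12.97, 12.57 and 12.71 in M1 arrays, 12.68, 12.64 and 12.58 in M2 arrays and 12.73, 13.17 and 13.19 in GST arrays.

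For 25 of the 27 subunits, all but UQCR-11 and ATPsynbeta, the 95% intervals of the combined change lay between -0.75 and 0.55 on the log2 scale. For these genes a fall beyond 1.68-fold or a rise beyond 1.46-fold lay outside the interval. This bound holds on the deposited scale. The standard errors of these 25 genes ran from 0.13 to 0.25. The probe sets of ATPsynC, ATPsynD, ATPsynE and ATPsynF carry the suffix that marks probes shared between transcripts, so their signal may include related transcripts.

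The constructs were also set against GST one by one. M1 gave 1 rise, Cox17 (0.86 ± 0.19, limma adjusted p = 0.015), and 2 falls, l(3)87Df (-1.08 ± 0.17, adjusted p = 0.00312) and Cox11 (-1.96 ± 0.46, adjusted p = 0.019). Over all probe sets M1 had 5.67% higher and 14.7% lower (20.4% in either direction). M2 gave 0 rises and 2 falls, l(3)87Df (-1.17 ± 0.17, limma adjusted p = 0.00228) and Cox11 (-1.57 ± 0.46, adjusted p = 0.0483), against 5.32% higher and 13.5% lower of all probe sets (18.8% in either direction). The Cox11 call with M2 held in 10 of the 20 alternative fits described below. Cox17 had 0.64 ± 0.19 with M2 (adjusted p = 0.0522 in limma). UQCR-11 had 1.74 ± 0.57 with M1 and 1.80 ± 0.57 with M2 (adjusted p = 0.0692 and 0.0646 in limma). Both comparisons share the GST arrays.

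With the replicate number as a block the construct comparisons gained calls in limma. M1 then had 5 calls among the 32 genes, adding UQCR-11 (adjusted p = 0.00118) and Cox10 (0.37 ± 0.11, adjusted p = 0.0434), against 14.4% of all probe sets higher and 23% lower. M2 also had 5, adding Cox17 (adjusted p = 0.00644), UQCR-11 (adjusted p = 0.00117) and UQCR-6.4 (-0.41 ± 0.12, adjusted p = 0.0387), against 14.5% higher and 21.7% lower. The combined comparison had 5 calls with the block, against 18% of all probe sets higher and 25.7% lower.

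Setting M2 against M1 directly, limma called 0 of the 32 genes and 0% of all probe sets, and 0 of the 32 had an unadjusted p under 0.05. Cox11 differed by 0.39, with a 95% interval of -0.67 to 1.45, and Cox17 by -0.22, with an interval of -0.66 to 0.22. For l(3)87Df the difference was -0.09 (interval -0.49 to 0.30) and for UQCR-11 0.06 (interval -1.26 to 1.38). Of the 27 subunits, 24 were lower with M2 than with M1, with a median difference of -0.13, where all probe sets had 0.03. Against GST the subunit median was -0.07 with M1 and -0.16 with M2, where all probe sets had -0.05 and -0.01. The largest difference among the 25 subunits went the other way. It was that of blw, at 13.51, 13.42 and 13.35 with M2 against 13.06, 13.10 and 13.14 with M1. The difference was 0.32 (interval -0.01 to 0.66) and did not pass. Over these 25 genes the intervals lay between -0.73 and 0.66, which leaves differences of up to about that size undetected.

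The array without dsRNA gave 0 calls against GST in limma, of the 32 genes and of all probe sets (0%), with 0 of the 32 at an unadjusted p under 0.05. The test rests on 1 array, assumed to vary like the other groups. The 27 subunits had a median difference of 0.29 log2 units above the GST mean, while all probe sets had 0.02. On average the subunit levels in this array were close to those of GST replicate 3 and above those of GST replicates 1 and 2. The absence of unadjusted p values under 0.05 among the 32 genes depended on keeping GST replicate 3. The mean over the 25 subunits was 12.66 in the array without dsRNA, against 12.18, 12.26 and 12.68 in GST replicates 1, 2 and 3. In the knockdown arrays that mean ran from 12.12 to 12.39, with a median of 12.22.

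Replicate 3 stood apart from replicates 1 and 2 for the subunit genes. Of the 27 subunits, 25 were higher in GST replicate 3 than in the mean of GST replicates 1 and 2, with a median gap of 0.45 log2 units, against 0.03 for all probe sets. Across the knockdown arrays the same gap was above 0 for 19 subunits with a median of 0.13, against -0.01 for all probe sets. Within replicates 1 and 2 the median change of the subunits after knockdown was -0.02, with 15 of 27 below 0. Within replicate 3, which has 1 GST array, it was -0.33 with 24 of 27 below 0, where all probe sets had -0.12. Leaving out GST replicate 3 gave a subunit median of -0.01.

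The changes of the 4 called genes had the same sign in both sets of replicates. These genes were called from both sets together, and replicate 3 has 1 GST array, so this is not a separate check. Cox11 changed by -1.71 within replicates 1 and 2 and by -1.87 within replicate 3, and l(3)87Df by -1.19 and -1.01. Cox17 changed by 0.78 and 0.68, and UQCR-11 by 1.61 and 2.08.

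**Figure D3:**
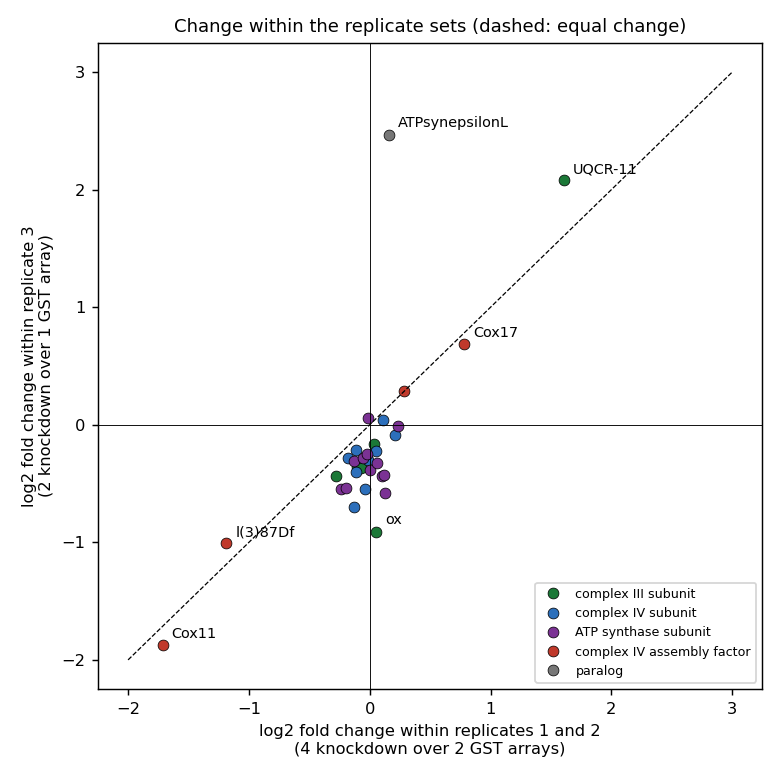
Log2 fold change of knockdown over GST within replicates 1 and 2 (horizontal axis, 4 arrays over 2) and within replicate 3 (vertical axis, 2 arrays over 1) for the 32 tested genes, coloured by role. The called genes lie near the dashed line of equal change, most subunits lie below it, and ATPsynepsilonL lies far above it at 0.16 and 2.47.

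A test of whether the knockdown effect differed between replicate 3 and the other replicates, added after seeing the data, called 2 of the 32 genes in limma, against 9.91% of all probe sets. In ox, a small complex III subunit, the effect was 0.06 within replicates 1 and 2 and -0.91 within replicate 3, a difference of -0.96 ± 0.23 (adjusted p = 0.041). Its values were 11.59, 11.50 and 11.24 with M1, 11.39, 11.57 and 11.32 with M2 and 11.68, 11.24 and 12.18 with GST. The other was ATPsynepsilonL, a paralog of the ATP synthase epsilon subunit gene, with a difference of 2.31 ± 0.35 (adjusted p = 0.00946).

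ATPsynepsilonL was the 1 paralog that could be tested. It had 5.17, 5.38 and 8.02 in M1 arrays and 5.32, 5.09 and 7.74 in M2 arrays, against 4.71, 5.45 and 5.41 in GST arrays and 5.60 without dsRNA. The knockdown arrays of replicate 3 were high, and the other 4 knockdown arrays overlapped with GST. Over all arrays the change of 0.93 ± 0.78 did not pass (limma adjusted p = 0.454). The remaining 12 measured paralogs lay between 2.22 and 2.54 on all 10 arrays, at or near the lowest value of the table, and were not tested. They were COX4L, COX5BL, COX6AL, COX6AL2, COX6CL, COX7AL, COX7AL2, UQCR-11L, UQCR-14L, ATPsynbetaL, ATPsynCF6L and ATPsynGL. Of 6 late testis genes examined beside them, 5 also stayed within 1 log2 unit of the lowest value on every array. Of 4 germ line markers 2 had a value, and both were high in the knockdown arrays of replicate 3, as ATPsynepsilonL was. The germ line gene osk had 3.63, 4.97 and 7.74 with M1, 3.62, 3.81 and 7.75 with M2, and 2.22, 2.78 and 2.22 with GST, at or near the lowest value of the table. Within replicates 1 and 2 its change was 1.51, where that of ATPsynepsilonL was 0.16. Over all arrays osk did not pass (2.84 ± 1.11, limma adjusted p = 0.102), and the other marker, bam, was too low to be tested. The summed log2 values of these 2 markers ran from 5.88 to 12.29 in knockdown arrays and from 4.47 to 5.03 in GST arrays, and their part in the ATPsynepsilonL values was not tested.

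ATPsynbeta, the catalytic subunit gene on chromosome 4, differed most between replicates. Its probe set had 13.41, 13.41 and 10.82 with M1, 13.36, 13.36 and 10.81 with M2, 13.14, 13.17 and 10.82 with GST, and 10.54 without dsRNA. Replicate 3 was lower by 2.57 log2 units in knockdown arrays and by 2.33 in GST arrays, as was the array without dsRNA. The standard error of its change of 0.15 over all arrays was 0.88. It was 0.09 with replicate 3 and the array without dsRNA set apart as a block, and 0.10 with the replicate number as a block. The change did not pass in either fit (limma adjusted p = 0.197 and 0.267). A second probe set of ATPsynbeta did not show this. It had 11.03, 11.36 and 11.35 with M1, 11.26, 11.32 and 11.49 with M2, 11.14, 10.50 and 11.53 with GST and 11.86 without dsRNA. Its change after knockdown was 0.24 ± 0.22 (limma adjusted p = 0.498).

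**Figure D4:**
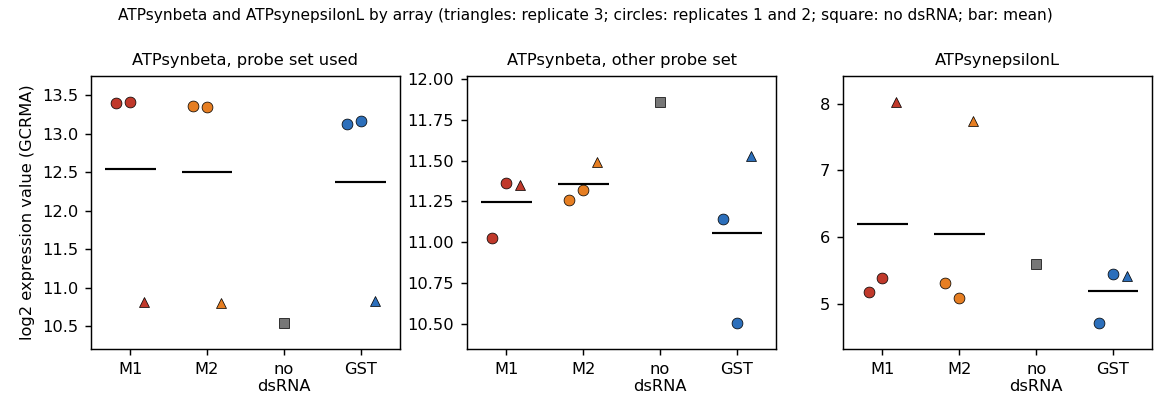
Log2 expression value of each array for both probe sets of ATPsynbeta and for ATPsynepsilonL, by group, with bars for group means. The first ATPsynbeta probe set is near 10.8 in replicate 3 of each dsRNA group and above 13 in replicates 1 and 2, and ATPsynepsilonL is near 8 in replicate 3 of M1 and M2.

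Other probe sets of the same genes were compared where they reached the filter. For ATPsyngamma the second probe set had -0.05 ± 0.21, against 0.01 for the one used, and the signs differed while neither passed in limma. For COX7B the second had -0.11 ± 0.13, against -0.21. The remaining 3 further probe sets, of COX7B, COX7C and RFeSP, were too low to be tested.

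Genes of the same pathway outside the naming rule were described from a list of 24, of which 17 had a tested probe set. In the combined comparison 4 fell and 0 rose, with a median of -0.18, where 17.4% of all probe sets were lower and 7.85% higher. With 17 genes, 4 falls are near that background. Of the 4 tested assembly factors in this list 2 fell, Surf1 and Scox. COA7 (-0.18 ± 0.19) and Ttc19 (0.14 ± 0.27) did not pass (adjusted p = 0.575 and 0.775 in limma). Surf1 fell by 3.56 ± 0.18 (limma adjusted p = 1.21e-05), to 3.62, 3.78 and 4.41 with M1 and 3.44, 3.51 and 3.68 with M2, against 7.29, 7.28 and 7.34 with GST. Scox, a copper-binding factor, fell by 1.04 ± 0.18 (adjusted p = 0.00401 in limma). The complex II membrane anchor genes SdhD and SdhC fell by 0.88 ± 0.16 and 0.42 ± 0.13 (adjusted p = 0.00528 and 0.0409 in limma). Cyt-c1, the cytochrome of complex III, was at 0.04 ± 0.14, the ATP synthase inhibitor gene IF1 at -0.22 ± 0.15, and all 5 carrier and porin genes and all 3 measured regulators of nuclear respiratory genes did not pass.

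Measures of the arrays themselves moved with replicate number. The excess of the 3′ over the 5′ probe set of Gapdh, a measure of RNA integrity and labelling, was 1.75 to 1.95 log2 units in replicate 3 and 2.11 without dsRNA, against 0.37 to 0.63 in replicates 1 and 2. Within each replicate number it was lower in both knockdown arrays than in the GST array. The values were 0.39 and 0.49 against 0.53 in replicate 1, 0.37 and 0.40 against 0.63 in replicate 2, and 1.75 and 1.80 against 1.95 in replicate 3. Other controls did not all share this direction. The excess for eIF4a was 3.53 with M1 and 3.55 with M2 in replicate 3, above the 2.95 of GST. In replicate 1 it was higher with M2 than with GST for eIF4a (1.932 against 1.928) and for actin (0.68 against 0.56). In the remaining knockdown arrays both were lower than in GST. The part of these measures in the differences between replicates, and between knockdown and GST arrays, was not tested. All 8 markers of hemocytes, the blood cells that SL2 cells resemble, were measured above the filter. NimC1 rose (2.20 ± 0.27, limma adjusted p = 0.000633) and the other 7 did not pass. Of the 3 neuron markers brp rose by 1.18 ± 0.14 (adjusted p = 0.000631 in limma), elav did not pass (1.06 ± 0.57, adjusted p = 0.229) and nSyb stood at 2.22 on every array. The 2 muscle and 2 fat body markers with a value were near the lowest value. Fewer cells of a type and less RNA per cell cannot be told apart in these samples.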

How the data were processed

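RNA from SL2 cells was hybridised to Affymetrix arrays, 1 per sample. Values in the deposited table are on the log2 scale, made by the authors with GCRMA, per the submitters' processing notes. GCRMA corrects background, normalises and summarises probe sets. Its version is not given in the sources used here. No further normalisation was applied for the main results.

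Of 18952 probe sets, 183 controls were left out. Names came from the platform annotation, updated by Entrez identifier through RefSeq Release 6 (53 genes fit the rule, 44 had a value). Probe sets with a mean of at least 4 entered the test (7298). It used lmFit and eBayes of limma 3.58.1 (R 4.3.3) on 4 group means over all 10 arrays. Two-sided p-values were adjusted by Benjamini and Hochberg's method across the whole tested table, with a threshold of 0.05. Figures used Python 3.11.15 and matplotlib 3.10.9. The fit was tested on simulated data. No 2 arrays were identical. The number of arrays limits the precision.

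Members, lists and alternatives were chosen with earlier results of these data known. The naming rule took all members, with those called, and those whose probe sets disagreed in sign, in more detail, and listed pathway genes where called. Cox10, COX8, UQCR-6.4, ox, blw, ATPsynCF6, ATPsynbeta and ATPsynepsilonL were chosen for values by array after their values were seen, as were the uncalled pathway and marker genes named. The design text calls the replicates biological. Deviations from group means correlated over 9 pairs of same-numbered arrays at 0.34 to 0.93, and the numbers were treated as pairs in an alternative fit, the replicate block. Differently numbered arrays among replicates 1 and 2 correlated as well, at 0.55 to 0.75 over 6 pairs, above the pairs of same-numbered GST and knockdown arrays there (0.34 to 0.49), so the numbers 1 and 2 are not told apart by this check. The deviations also separated replicate 3 from replicates 1 and 2 (r of -0.89 to -0.54 over 12 pairs). Deviations from a group mean cancel out within the group, so these negative values and the positive ones among replicates 1 and 2 are not independent. The split of replicate 3 from replicates 1 and 2 was used as a second block, with the array without dsRNA placed beside replicate 3. The other alternatives were filters, quantile, spike-in and median scaling, eBayes options, 1 probe set per gene, replicates 1 and 2 alone, and leaving out each array with dsRNA.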

Additional observations from a re-analysis of the deposited data

How the results depend on the processing

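Of 20 alternatives to the combined comparison, 16 left the count of called genes within 1.5 times the main count of 4. By the same measure the count held in 17 of 20 alternatives for M1 and in 7 of 20 for M2. With each array centred on the spike-in controls the count was 0 in all 3 comparisons with GST, with 2 of the 32 genes at an unadjusted p under 0.05 in the combined one in limma. The spike-in median of GST replicate 2 was 13.12, that of GST replicate 1 was 10.66 and that of GST replicate 3 was 10.84. Without GST replicate 2 this centring gave 2 combined calls (0 higher, 2 lower), 2 for M1 and 1 for M2. Of all probe sets 1.64% were then higher and 13.6% lower in the combined comparison. The shares were 1.04% and 14.9% for M1, and 1.29% and 6.99% for M2. In this fit the subunit median was -0.73 beside -0.65 for all probe sets. Cox17 with M1 had -0.0342, of opposite sign to the main value. The subunit median was 0.08 with all arrays kept under spike-in centring, where all probe sets had 0.18, and -0.06 after median centring.

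Leaving out 1 array gave 2 to 4 combined calls, 2 to 4 for M1 and 1 to 2 for M2, and a subunit median of -0.23 to -0.01. Over these fits 4.99% to 7.37% of all probe sets were higher and 13.3% to 17.2% lower in the combined comparison. For M1 the shares were 3.56% to 6.65% higher and 10.4% to 15.7% lower. For M2 they were 3.1% to 5.66% higher and 9.93% to 14.1% lower. Without GST replicate 1 or GST replicate 2 the combined calls were 2. M2 kept 1 call without GST replicate 1, GST replicate 2, M1 replicate 2 or any M2 array, and also with no filter on the mean level or with a minimum mean of 6. With the replicate block M1 and M2 had 5 calls each, with replicate 3 as a block 5 each, and M2 had 4 in replicates 1 and 2 alone. The combined counts in these fits were 5, 6 and 4. With replicate 3 as a block 16.7% of all probe sets were higher and 25.5% lower for M1, and 17.2% and 24.1% for M2. In replicates 1 and 2 alone 13.2% were higher and 18.2% lower for M2. Apart from the genes named beside their results, the replicate block changed no call of the combined comparison. Without the filter, Cox11 and UQCR-11 lost their combined calls (adjusted p = 0.0686 and 0.146 in limma), and 1 paralog at the floor, COX6AL, passed in the array without dsRNA at 0.05 log2 units. M2 against M1 had 0 calls in limma under all 20 alternatives. Of all probe sets 1843 were called in the combined comparison, 3189 with the replicate block, 3541 with replicate 3 as a block, 2838 in replicates 1 and 2 alone and 1110 with spike-in centring without GST replicate 2.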
